A study of Mus musculus with 16 samples.

Results

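The comparison described here set bourgeonal against clean air in the cells that carried less RNA of the activity gene S100a5. Its members were the 8 libraries titled GFP+ of the 16 in the series, 4 from bourgeonal pools and 4 from vehicle pools, chosen by their titles. Bourgeonal is a floral-smelling aldehyde used in perfumes. All groups came from C57BL/6 mice with an S100a5-tauGFP allele, of both sexes and 7 to 12 weeks of age, so the controls carried the reporter too. The 24 mice stayed singly for 40 h in chambers flushed at 3.1 L/min. From hour 26 they received 10 s of odorant or, in the vehicle group, filtered air every 20 min. Olfactory mucosa was then dissociated and sorted by fluorescence, and RNA of 3 mice made up each library on a Clariom S array.

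An olfactory sensory neuron expresses a single odorant receptor gene out of a very large family, so the receptor RNAs in a sorted sample report which neurons are in it. Odorant binding raises cyclic AMP through the G protein subunit Gnal and the cyclase Adcy3, opens the Cnga2 channel and depolarises the cell. S100a5 RNA rises in neurons that have been active, and the reporter was built to make such neurons fluoresce. The comparison within the gate of lower S100a5 asks which receptors hold less RNA there after odor than after air. Clariom S signals from mixed cells do not tell fewer cells of a type from less RNA per cell.

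The labels contradict each other on the gate: these 8 libraries are GFP+ by title and GFP- by cell type field. S100a5 was lower in the library titled GFP+ than in its titled GFP- partner in 8 of 8 pools, by a mean of -1.02 ± 0.25 on the log2 scale (SD, n = 8 pools). The libraries are called by their titles throughout. The mature neuron markers were abundant in all 8: Omp, the olfactory marker protein, lay between 18.63 and 18.92, and 0 of 14 mature neuron markers were below the guide to background. That guide is the 95th percentile of vomeronasal receptor genes, which these cells should not express, and it lay between 4.285 and 4.636 in the 8 libraries. Group means are set against the highest of these values. All levels are deposited log2 values, on which a difference of 1 is a 2-fold change. Libraries of the same treatment correlated at 0.9903 to 0.9944 and libraries of different treatment at 0.9899 to 0.9947. The first principal component, 24% of the variance, set numbers 2 and 3 apart from numbers 1 and 4 in both treatments. RNA of Uty, a Y-linked gene, was 8.06, 10.49, 10.92 and 3.36 in odor libraries 1 to 4 and 7.67, 10.63, 10.92 and 3.88 in vehicle libraries 1 to 4. Both libraries numbered 4 were thus low in this gene.

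With bourgeonal, 2 receptor genes were lower and none was higher past the threshold in the main fit, which holds no block. Olfr1099 and Olfr1040, odorant receptors of chromosome 2, fell at an adjusted p under 0.05 in the limma fit across all 19505 named genes, which is 0.0103% of the genes tested. The count of genes higher with odor was 0 (0.0% of those tested), with 827 genes (4.24%) at an unadjusted p under 0.05 in either direction in the same fit. With the replicate number as a block, 1 gene passed (0.00513%), Olfr1099. The plot of all genes shows the receptors with the lowest differences standing apart from the rest.

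**Figure D1:**
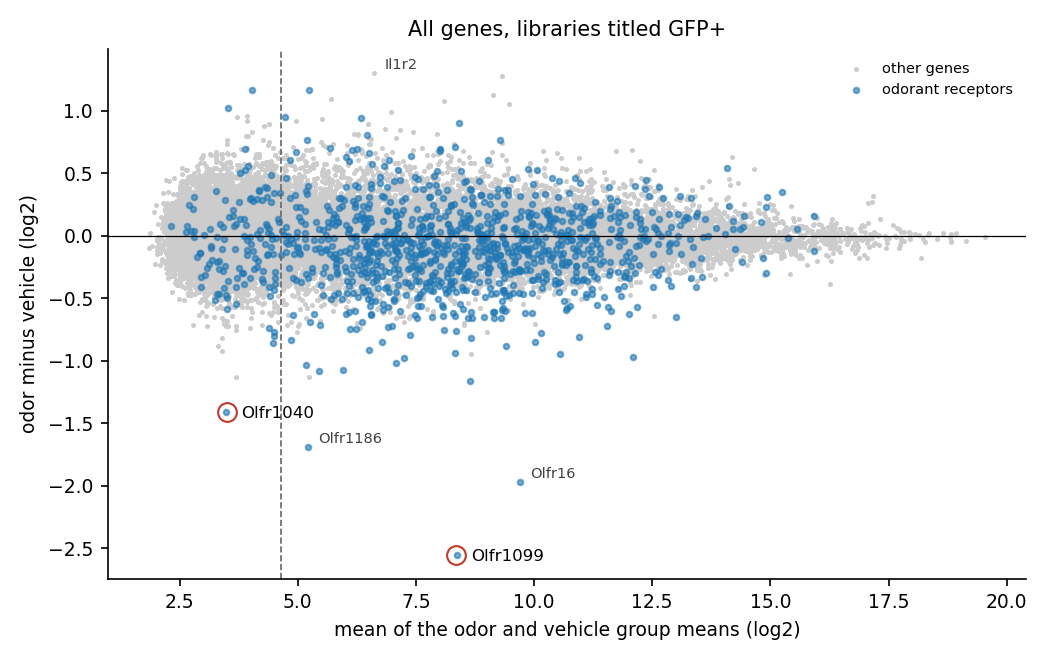
Odor minus vehicle on the log2 scale (vertical) against the mean of the group means (horizontal) for 19505 genes in the libraries titled GFP+. Blue points are odorant receptors, the dashed line is the highest vomeronasal guide of the 8 libraries, and red rings mark Olfr1099 (-2.55) and Olfr1040 (-1.41), which passed the threshold.

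Olfr1099 was the gene with the lowest difference of all genes measured. In vehicle libraries 1 to 4 its log2 level was 9.85, 9.85, 9.78 and 9.05, and in odor libraries 1 to 4 it was 7.61, 6.90, 7.49 and 6.33. The highest odor library lay below the lowest vehicle library. The mean fell from 9.63 ± 0.39 to 7.08 ± 0.59 (SD, n = 4 each), a difference of -2.55 with a standard error of 0.29 and a 95% interval of -3.18 to -1.92. The vehicle level was 5.85 times the odor level, and both were above the guide in all libraries. The limma adjusted p was 0.0345 (0.00211 with the replicate number as a block), and the exact two-sided permutation test gave p = 0.0286, the smallest that 70 assignments of 8 libraries allow. By number, the odor library was lower by -2.24, -2.95, -2.29 and -2.72. In vehicle libraries 339 receptors had a higher mean than Olfr1099, and in odor libraries 690 did. Without the block the call was lost on leaving out odor library 2 or 3 or vehicle library 1, 2 or 3 (adjusted p 0.155, 0.0769, 0.136, 0.126 and 0.111), while the difference stayed between -2.74 and -2.30 over all 8 such fits. With the block, leaving out each number gave adjusted p-values of 0.0129 to 0.0258.

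Olfr1040 was a gene of low signal. Its log2 level was 4.04, 4.01, 4.61 and 4.14 in vehicle libraries 1 to 4 and 2.59, 2.97, 2.93 and 2.66 in odor libraries 1 to 4, with no overlap. The means were 4.20 ± 0.28 and 2.79 ± 0.19 (SD, n = 4 each), a difference of -1.41 with a standard error of 0.18 and a limma adjusted p of 0.0483. Every one of these values lay under its own library's vomeronasal guide. Of 321 vomeronasal genes, 19 had a higher vehicle mean than Olfr1040 and 54 had a lower odor mean. No fold is given for this gene, since neither group was above background. The adjusted p was 0.0911 with the replicate number as a block, and it was 0.111 to 0.268 when any of the 8 libraries was left out. Olfr1040 was thus called only in fits that held all 8 libraries and no block.

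**Figure D2:**
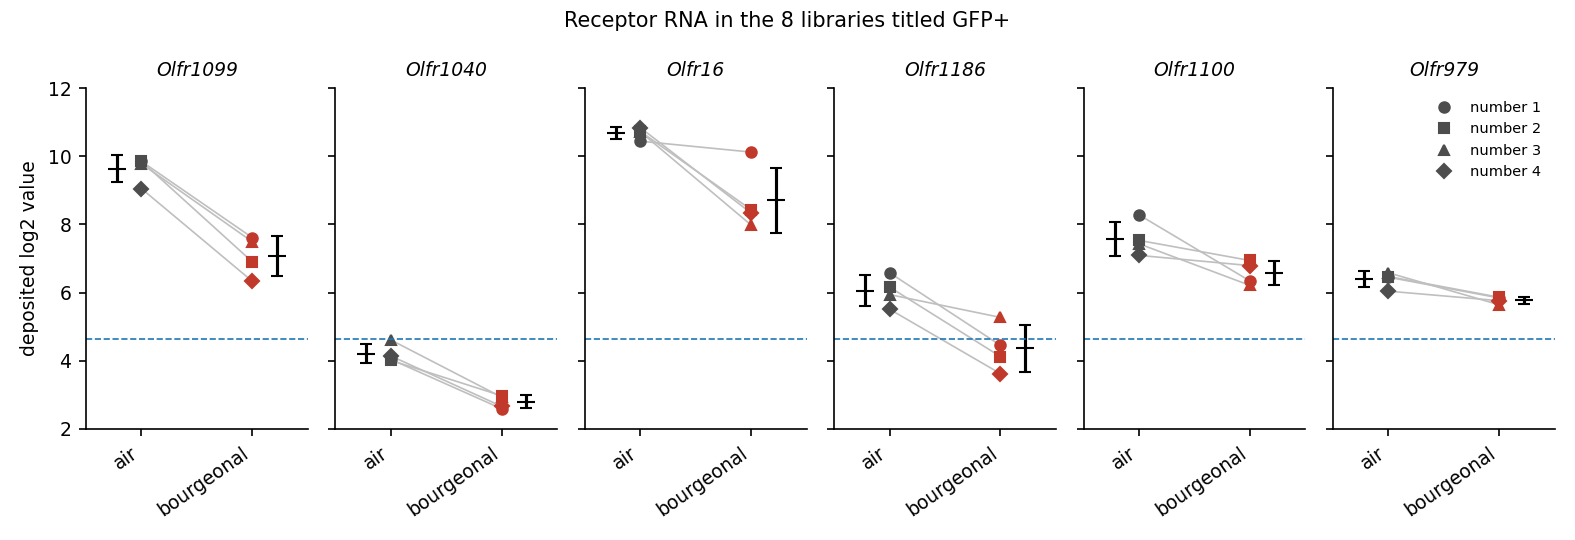
Deposited log2 values of 6 odorant receptors in the libraries titled GFP+, air in grey and bourgeonal in red, with libraries of the same number joined and the group mean ± SD beside them (n = 4). The dashed line is the highest vomeronasal guide (4.636). Olfr1099 and Olfr1040 passed the threshold, and for Olfr16 odor library 1 (10.12) lies far above the other odor libraries.

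Odorant receptors of a cluster can be close copies of each other. The first 50 bases of each receptor's RefSeq gene model (GRCm38.p6) were compared among the 674 receptors whose model starts at ATG. Bases were compared position by position without gaps. Stretches shifted along the gene thus count as unlike, as do the letters TTCATCCT that Olfr1101 shares with Olfr1099. Olfr1100, the next receptor in gene order, shared 40 of 50 bases with Olfr1099 and was the closest of them. Olfr1098, the neighbour on the other side, shared 35, and Olfr1101 shared 17. The stretches are shown to let the neighbours be compared, with capitals marking bases that differ from Olfr1099.
Olfr1099, chr2:86959407-86959456, minus strand: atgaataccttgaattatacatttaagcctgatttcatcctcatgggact
Olfr1100, chr2:86978745-86978794, minus strand: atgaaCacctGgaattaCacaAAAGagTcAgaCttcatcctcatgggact
Olfr1098, chr2:86923481-86923530, minus strand: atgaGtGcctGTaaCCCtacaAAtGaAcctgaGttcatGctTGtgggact
Olfr1101, chr2:86989125-86989174, minus strand: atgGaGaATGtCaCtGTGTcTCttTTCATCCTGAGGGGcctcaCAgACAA

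Olfr1100, the closest by this count, was also lower in all odor libraries, while Olfr1098 was not. Olfr1100 was 8.28, 7.53, 7.43 and 7.09 in vehicle libraries 1 to 4 and 6.34, 6.94, 6.21 and 6.79 in odor libraries 1 to 4, with no overlap. Its difference was -1.01 (SE 0.25) and the limma adjusted p was 0.999. The exact permutation p of 0.0286 restates the lack of overlap, since every gene without overlap gets that value. Of all genes, 1.24% were lower without overlap. Olfr1098 had a difference of 0.33 (SE 0.27), at means of 10.07 with vehicle and 10.40 with odor. Whether an Olfr1100 probe also reads Olfr1099 RNA was not tested. Of the other near neighbours, Olfr1097 had a difference of 0.40 (SE 0.25), Olfr1101 of -0.27 (SE 0.18) and Olfr1102 of 0.05 (SE 0.26), and none of these passed the test. Among the 5 receptors shown on either side of Olfr1099, Olfr1100 was the single one whose groups did not overlap. Of all odorant receptors, 1.65% were lower without overlap.

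Olfr1040, like Olfr1099, lies on the minus strand of chromosome 2. The closest receptors to it over the first 50 bases, Olfr452, Olfr290 and Olfr965, each shared 35 of 50 bases and lie on chromosomes 6, 7 and 9. Olfr290 was picked for display because it was also lower in every odor library than in any vehicle library, as were 1.65% of odorant receptors. The groups of the equally close Olfr452 and Olfr965 overlapped. A link between likeness and the odor effect was not tested. The stretches of Olfr1040 and of Olfr290 are given, and capitals mark bases that differ from Olfr1040.
Olfr1040, chr2:86146683-86146732, minus strand: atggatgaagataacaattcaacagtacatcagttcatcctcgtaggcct
Olfr290, chr7:84915781-84915830, plus strand: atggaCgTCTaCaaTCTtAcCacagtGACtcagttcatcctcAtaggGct
Olfr290 had a vehicle mean of 10.99 and an odor mean of 10.41, a difference of -0.58 (SE 0.19) that did not pass the test. Olfr452 had a difference of -0.07 (SE 0.17) and Olfr965 of -0.25 (SE 0.30). The receptors beside Olfr1040 in gene order, Olfr1039 and Olfr1042, had differences of 0.37 (SE 0.23) and 0.44 (SE 0.25).

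**Figure D3:**
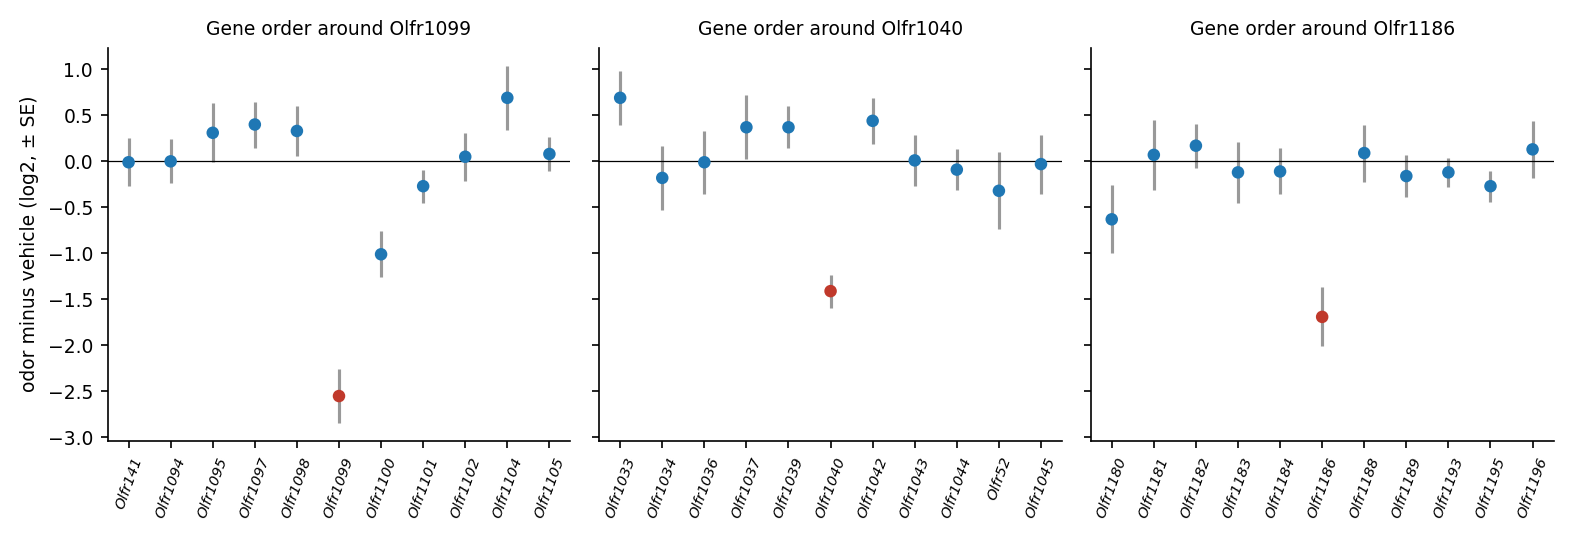
Odor minus vehicle (log2, ± SE) for the 5 receptors on either side, in gene order, of Olfr1099, Olfr1040 and Olfr1186 (red). Beside Olfr1099 (-2.55), Olfr1100 is at -1.01, while the receptors around Olfr1040 lie between -0.32 and 0.69.

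The 250 bases before the start of the gene model were searched for letters known from receptor promoters, the homeodomain core TAATTA, to which Lhx2 binds, and the Olf1/EBF core CCCNNGGG, both strands in each case. The core TAATTA reads the same on both strands. The RefSeq models of Olfr1099, Olfr1100 and Olfr1040 begin at ATG and hold coding length only, so their windows end at the start codon and not at a mapped transcription start. The model of Olfr16 begins elsewhere. Among 948 receptor windows of the same length, 171 held at least 1 copy of TAATTA. This is a larger share than the 4.84% of 32851 windows of all genes that held at least 1. At least 2 copies were in 2.0% of the receptor windows. CCCNNGGG was in 2.74% of receptor windows and 11.8% of all. The window held 3 copies of TAATTA for Olfr1099, 1 for Olfr1100 and 0 for Olfr1040 and Olfr16, and none of the 4 windows held CCCNNGGG. The share of G and C bases was 19.6% for Olfr1099, 24.0% for Olfr1100, 32.4% for Olfr1040 and 40.4% for Olfr16. TAATTA holds no G or C, and the part of base content in the copy number was not tested. The windows of the neighbours Olfr1099 and Olfr1100 are shown with TAATTA in capitals.
Olfr1099, chr2:86959457-86959706, minus strand: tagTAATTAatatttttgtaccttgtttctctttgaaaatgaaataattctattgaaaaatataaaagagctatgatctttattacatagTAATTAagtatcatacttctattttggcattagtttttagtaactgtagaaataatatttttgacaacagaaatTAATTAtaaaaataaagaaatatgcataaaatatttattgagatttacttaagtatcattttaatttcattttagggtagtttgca
Olfr1100, chr2:86978795-86979044, minus strand: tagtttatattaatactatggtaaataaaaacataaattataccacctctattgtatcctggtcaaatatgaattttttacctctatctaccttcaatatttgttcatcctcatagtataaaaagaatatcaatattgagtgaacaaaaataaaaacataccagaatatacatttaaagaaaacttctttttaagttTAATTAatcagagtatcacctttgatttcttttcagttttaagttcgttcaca

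Olfr16, also called MOR23 and known to respond to the floral odorant lyral, did not pass the threshold but had the lowest difference after Olfr1099. It was 10.44, 10.73, 10.72 and 10.84 in vehicle libraries 1 to 4 and 10.12, 8.43, 7.98 and 8.33 in odor libraries 1 to 4. The groups did not overlap, and odor library 1 differed from the vehicle library of its number by -0.33, while odor libraries 2 to 4 differed by -2.30, -2.74 and -2.51. The difference was -1.97 (SE 0.37) with a limma adjusted p of 0.849 (0.577 with the replicate number as a block). Without odor library 1 the difference was -2.44 and the adjusted p 0.00115, so that 1 library decided the call; with the block and without number 1 the adjusted p was 0.0174. The number of receptors with a higher mean went from 215 with vehicle to 457 with odor.

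Olfr1186, another receptor of chromosome 2, was 6.58, 6.16, 5.94 and 5.51 in vehicle libraries 1 to 4 and 4.45, 4.12, 5.27 and 3.62 in odor libraries 1 to 4. Its difference was -1.69 (SE 0.32, limma adjusted p = 0.849). All 4 vehicle libraries and 2 odor libraries lay above their own guide. The receptors beside it in gene order had differences of -0.11 (Olfr1184, SE 0.25) and 0.09 (Olfr1188, SE 0.31). It passed with the replicate number as a block when number 3 was left out, and under no other setting tried.

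The remaining receptors among the 12 of smallest p were lower with odor except for Olfr917, and none passed the test (limma adjusted p = 0.999 for each). Olfr979 had a difference of -0.61, Olfr740 of -0.76, Olfr1352 of -0.73, Olfr576 of -0.86, Olfr1301 of -0.94 and Olfr1381 of -0.60. Olfr1301 was abundant, at 11.02 ± 0.58 with vehicle and 10.08 ± 0.27 with odor (SD, n = 4 each), and its groups overlapped. Olfr917 was at 3.46 ± 0.74 with vehicle and 4.62 ± 0.44 with odor, with 0 vehicle and 3 odor libraries above their own guide.

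Over the whole family, 676 of 1091 odorant receptors (62.0%) had a difference below 0, against 51.1% of all genes, and 415 had one above it. The median was -0.085, against -0.005 over all genes, and after median centring of the libraries it was -0.101 against -0.021. Receptors whose 4 odor values all lay below the 4 vehicle values numbered 18 (1.65%), against 1.24% of all genes, and receptors with the opposite order numbered 1 (0.0917%), against 1.11% of all genes. The single receptor with higher odor values was Olfr1431, at 8.95 to 9.34 with vehicle and 9.35 to 9.74 with odor. At an unadjusted p under 0.05 there were 59 receptors lower (5.41%, against 1.99% of all genes) and 20 higher (1.83%, against 2.25%).

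Differences of more than 1 on the log2 scale were found in 9 receptors downward and 3 upward, against 11 and 9 of all genes. Beside the 5 named above, the receptors lower by that much were Olfr1223 (-1.16), Olfr1093 (-1.08), Olfr1161 (-1.07) and Olfr1340 (-1.04), and in each of these the groups overlapped. Those higher were Olfr624 (1.17), Olfr917 (1.16) and Olfr936 (1.02), also with overlap. These genes were chosen after their values were seen. Receptor levels were more variable between pools than those of other genes, with a median SD of 0.419 over vehicle libraries and 0.429 over odor libraries, against 0.248 and 0.252 over all genes. Of the 1091 receptors, 962 (88.2%) lay within 0.5 of no difference, and 983 had a group mean above the guide.

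The receptors without overlap came from several chromosomes. Chromosome 2, with 284 receptors, held 6 of the 18 lower ones (2.11% of its receptors, against 1.65% of all receptors). Chromosome 9 held 4 of its 132 (3.03%), chromosome 7 held 2 of 232 (0.862%) and chromosome 14 held 2 of 39 (5.13%). The median difference of the chromosome 2 receptors was -0.037, and 56.7% were below 0. Chromosome 16, with 36 receptors, had a median of -0.252 and 83.3% below 0, with 1 receptor, Olfr180, lower without overlap (-0.37, SE 0.16). Split into 4 equal bins by mean level, the receptors had medians of -0.064, -0.118, -0.114 and -0.043 from the lowest bin to the highest.

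Among receptors with a described ligand, 11 of 13 measured were below 0, with a median of -0.326, and 0 passed the test. Olfr16 was the single member without overlap (7.69% of the list, against 1.24% of all genes). Olfr73 (mOR-EG), a eugenol receptor, differed by -0.02 (SE 0.18) at a vehicle mean of 12.32, and Olfr17 (P2) by 0.16 (SE 0.17) at 14.36. Olfr43 differed by -0.49 (SE 0.25) and Olfr2 (I7), an octanal receptor, by -0.27 (SE 0.31). Trace amine receptors, the amine-sensing family of the main epithelium, had 10 of 15 members below 0 and a median of -0.111, and their groups overlapped throughout.

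The same 4 receptors were read in the titled GFP- libraries of the same pools, where S100a5 was higher. Olfr1099 was abundant there and differed little between treatments, at 13.07 ± 0.24 with vehicle and 12.86 ± 0.09 with odor (SD, n = 4 each), a difference of -0.21. The odor effect in the libraries titled GFP+ minus that in the libraries titled GFP- was -2.34, with a 95% interval of -3.13 to -1.54. The limma adjusted p of that difference was 0.384 with the pool as a block and 0.00879 with the replicate number as a block. The fit by number sets its block within each gate and holds no pool term. It thus treats the 2 gates of a pool as independent libraries. Olfr1040 was 2.92 ± 0.23 with vehicle and 2.97 ± 0.25 with odor, below the guide in both, and the difference between the gates was -1.46 (adjusted p 0.269, and 0.219 with the replicate number as a block).

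Olfr16 went the other way in the titled GFP- libraries, at 9.13 ± 1.48 with vehicle and 11.73 ± 0.28 with odor, so that the odor effect differed between the gates by -4.57 (limma adjusted p 0.467, 0.131 with the replicate number as a block). Olfr1100 was lower with odor in both gates, by -0.50 in the libraries titled GFP-, and the effects differed by -0.51 with a 95% interval of -1.20 to 0.18. No gene passed for the difference between gates in the fit with the pool as a block (0 of 19505, 0.0%), with a smallest limma adjusted p of 0.172 and 1109 genes at an unadjusted p under 0.05.

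**Figure D4:**
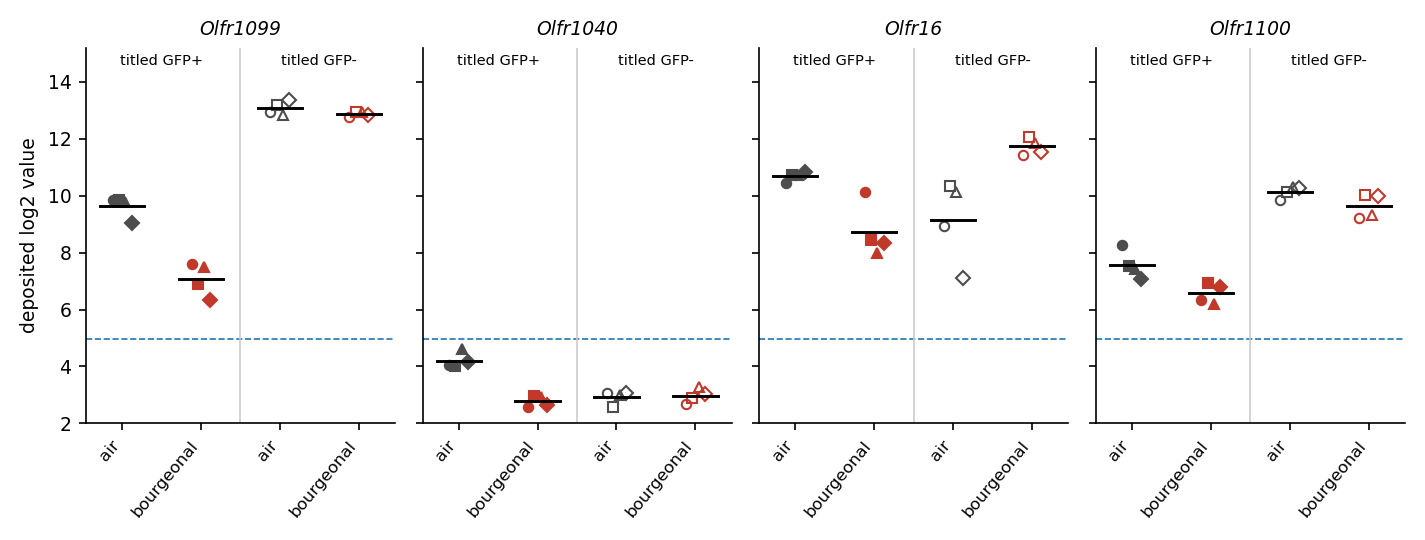
Deposited log2 values of 4 receptors in all 16 libraries: air in grey, bourgeonal in red, titled GFP+ filled, titled GFP- open, horizontal bars at the group means, marker shapes for the number. The dashed line is the highest vomeronasal guide of the 16 libraries (4.971). Olfr1099 is lower with bourgeonal in the libraries titled GFP+ and stays near 13 in the others, and Olfr16 moves in opposite directions in the gates.

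No difference was detected for the activity reporter gene itself within this gate. S100a5 was 15.14 ± 0.41 with vehicle and 15.15 ± 0.43 with odor (SD, n = 4 each), with a 95% interval of the difference of -0.54 to 0.55. Kirrel2, an adhesion molecule that rises with activity in sensory axons, differed by 0.42 (SE 0.44), and Kirrel3, its counterpart in less active axons, by -0.27 (SE 0.18). Of 8 activity-induced genes measured, 7 were above 0, with a median of 0.195 and 0 past the test. The transduction genes were nearly level: Gnal differed by 0.02 (SE 0.13), Adcy3 by -0.07 (SE 0.14), Cnga2 by -0.06 (SE 0.14) and the chloride channel gene Ano2 by -0.09 (SE 0.13). The median of the 15 transduction genes was -0.013, and Cngb1, a channel subunit gene read near background, was the single member without overlap (6.67% of the list, against 1.11% of all genes), at 4.24 to 4.64 with vehicle and 4.74 to 5.07 with odor. Omp differed by -0.04 (SE 0.14). Mature neuron genes had 12 of 14 members below 0 and a median of -0.044, and immature neuron genes had 11 of 13 below 0 and a median of -0.110.

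Immediate early genes, which are induced rapidly by stimulation, mostly had positive differences, with 20 of 22 above 0 and a median of 0.245 against -0.005 over all genes. None passed the test (limma adjusted p = 0.999 for each), and 2 members (9.09%, against 1.11% of all genes) were higher and 1 lower (4.55%, against 1.24%) without overlap. Nr4a2, an orphan nuclear receptor, was 9.12, 9.07, 8.82 and 8.74 in vehicle libraries 1 to 4 and 10.75, 9.69, 10.04 and 9.48 in odor libraries 1 to 4, a difference of 1.05 (SE 0.25). Its relative Nr4a3 was 6.88, 7.85, 7.61 and 7.93 with vehicle and 9.08, 8.52, 8.82 and 8.15 with odor, a difference of 1.08 (SE 0.26). Jun ran the other way, at 12.11 to 12.44 with vehicle and 11.66 to 12.00 with odor (-0.47, SE 0.15). Fos differed by 0.18 (SE 0.27), Fosb by 0.68 (SE 0.22) and Egr1 by 0.40 (SE 0.20).

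Heat shock and dissociation stress genes had 7 of 8 members below 0 and a median of -0.285. That list held a library that stood apart: Hspa1b was 12.42 in vehicle library 3 and 7.54 to 7.95 in the other vehicle libraries, and Hspa1a was 12.80 there and 7.46 to 8.44 in the others. The part of dissociation in the immediate early values was not tested. Immune markers had 14 of 17 members above 0 and a median of 0.291, with summed log2 levels of 18.62 to 18.99 in odor libraries and 17.82 to 19.02 in vehicle libraries, and 0 of the 17 were below the guide. They include Lcn2 and Ngp, neutrophil granule genes, at 17.02 and 16.93 with vehicle and 17.34 and 17.20 with odor.

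The gene with the highest difference of all was Il1r2, a decoy receptor for interleukin-1 that is abundant in neutrophils. It was 6.43, 5.78, 5.19 and 6.47 in vehicle libraries 1 to 4 and 7.46, 6.89, 7.64 and 7.08 in odor libraries 1 to 4, a difference of 1.30 (SE 0.28, limma adjusted p = 0.999) without overlap. The part of immune cell content in it was not tested. Among genes that are no chemosensory receptor and had a group mean above the guide, leaving out Gm and Rik genes, the others of smallest p with higher values were Chek2 (0.89, SE 0.20), a checkpoint kinase gene, Pde4b (0.81, SE 0.18), a cyclic AMP phosphodiesterase gene, Cd200r1 (0.88, SE 0.21), a myeloid receptor gene, Nr4a2 and Cenpj (0.82, SE 0.19), a centriole gene. Chek2 and Cd200r1 had 0 of 4 vehicle libraries above their own guide, so against the guide they were at least 1.26-fold and at least 1.16-fold higher with odor. Under the same filter those with lower values were Ntmt1 (-0.77, SE 0.16), Ppm1l (-0.70, SE 0.15), St14 (-0.61, SE 0.15), Plaat1 (-0.60, SE 0.15), Cnnm3 (-0.52, SE 0.14) and Etfbkmt (-0.77, SE 0.22). In these 12 genes the groups did not overlap, which the choice by smallest p in the same libraries favours. Of all genes, 1.24% were lower and 1.11% higher without overlap. None of the 12 passed the test over all genes.

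**Figure D5:**
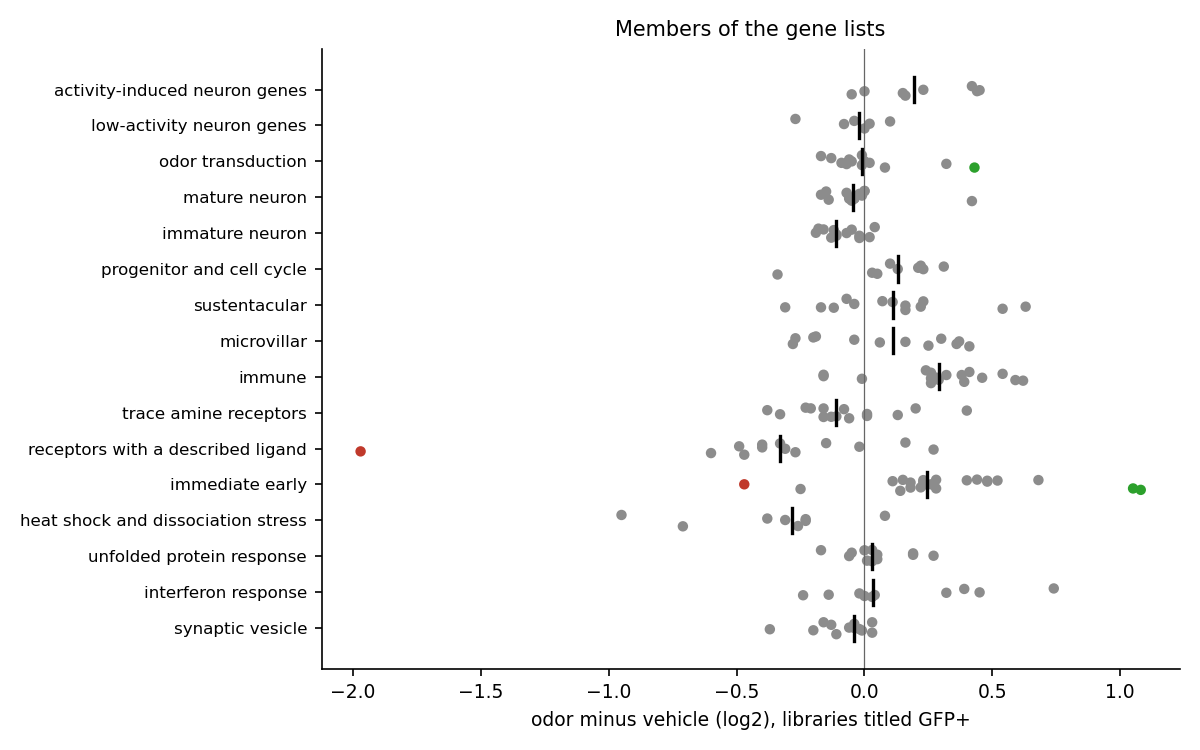
Odor minus vehicle (log2) for the members of 16 gene lists in the libraries titled GFP+; each point is a gene, the black bar is the median of the list, and colour marks genes whose groups did not overlap (red lower, green higher with odor). The immediate early median is 0.245, the immune median 0.291 and the median of receptors with a described ligand -0.326.

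The other cell types that the mucosa holds were read from marker lists. Sustentacular cells, which surround the neurons, had 8 of 13 markers above 0 and a median of 0.106, with Cyp2g1 at 14.59 with vehicle and 14.70 with odor. Microvillar cell markers had a median of 0.110, progenitor and cell cycle genes of 0.131, and Bowman's gland markers of 0.229. All 8 endothelial markers and 6 of 7 horizontal basal cell markers had both group means below the highest guide. Single libraries could lie above their own guide, such as Pecam1 at 4.69 against 4.39 in odor library 2. Ribosomal protein genes had 41 of 59 members below 0 and a median of -0.079, with 3 lower without overlap (5.08%, against 1.24% of all genes), Rplp0 (-0.34), Rpl37 (-0.28) and Rpl38 (-0.15). Respiratory chain genes had 64 of 93 below 0 and a median of -0.058, with 2 lower without overlap (2.15%), Ndufv1 (-0.11) and Sdha (-0.21). Interferon response genes had a median of 0.034, with Ifit1 the highest at 0.74 (SE 0.26). No member of these lists passed the test.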

How the data were processed

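Each library was 1 Clariom S array of sorted cells from a pool of 3 mice. Per the submitters' processing notes the authors made the deposited log2 values in Affymetrix Expression Console; its version, the summarisation and the genome build were not given in the sources used here. Spike-ins, other controls and 2634 unnamed probe sets were left out. Of 19572 probe sets naming 1 gene, the one with the highest mean was kept per gene, giving 19505 genes. Array number limits the precision.

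Odor was compared with vehicle in limma 3.58.1 (R 4.3.3; lmFit, eBayes, two-sided) without a block, with Benjamini-Hochberg adjustment over all genes at 0.05. The difference between gates was fitted on 16 libraries with the pool as a block. Its alternative with the replicate number as a block, set within each gate, held no pool term. Deviations of libraries sharing a number correlated at 0.157 to 0.210 and other pairs at -0.182 to 0.110. Numbers were thus taken as paired from the data, and the labels do not say what they stand for. The main fit leaves this pairing out. The fit with the replicate number as a block takes it in, and there Olfr1099 alone passed. Nothing says that pools of a group were handled apart, and p-values measure the spread between these pools. The fit was tested on simulated data with independent noise in each library, so without likeness by number. Changes of 1, 2 and 4 on the log2 scale were planted together, in 65, 66 and 69 genes. The fit recovered 63.1% of changes of 1, 98.5% of changes of 2 and 100% of changes of 4. The adjustment is milder when many genes change, so these rates do not hold for data in which 2 genes pass. False calls numbered 15.

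Named genes were those past the threshold, the 12 receptors and 6 genes each way of smallest p that are no chemosensory receptor, Gm or Rik gene and had a group mean above the guide, activity markers, neighbours and list members; for sequence likeness the first 50 coding bases were used in place of proteins. The members and lists were chosen with earlier results of these data known. Alternatives covered scaling, the dim filter, the prior, probe averaging, a Y-linked covariate, the block and leaving out each library. For the difference between gates each pool was left out with the libraries of both gates.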

Additional observations from a re-analysis of the deposited data

Results flagged for a closer look

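Among 106 groups of 4 libraries, from 53 genes given by library, 5 had a library far from the others, and chance alone marks about 1 group in 20. Olfr1099 was lowest in vehicle library 4, at 9.05. Olfr740 was lowest in odor library 3, at 7.55, and Olfr1223 in odor library 4, at 6.04. Cngb1 was highest in odor library 3, at 5.07. Hspa1b was highest in vehicle library 3, at 12.42.

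The odor effect on Olfr1099 differed between the gates by -2.34 in the limma fit with the replicate number as a block (adjusted p 0.00879). That fit leaves out that the 2 gates of a pool belong together. The same difference had an adjusted p of 0.384 in the fit with the pool as a block. Over leaving out each pool, with the libraries of both gates, in the latter fit the difference ranged from -2.62 to -2.09.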

How the results depend on the processing

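The count of genes lower with odor was 2; it was 1 with the replicate number as a block, 1 with the Y-linked mean as covariate and 0 with the 7011 dim genes left out, and it ranged from 0 to 2 on leaving out each library. With block settings chosen after seeing the data it was 1 with median centring, 1 with dim genes left out, and 1 to 2 on leaving out each number. The count of genes higher was 0 under every alternative run. Olfr1099 kept its value of -2.55 with dim genes left out, at an adjusted p of 0.0552 over 12494 genes, and ranged from -2.74 to -2.30 on leaving out each library. Olfr1040 did not pass with the replicate block (-1.41, adjusted p 0.0911), with the Y-linked covariate (-1.42, 0.0537) or with the block and median centring (-1.43, 0.0806); it ranged from -1.47 to -1.28 on leaving out each library and from -1.53 to -1.32 (-1.40, -1.53, -1.32 and -1.39 without numbers 1 to 4) on leaving out each number with the block, and was not tested under the dim filter. The Olfr1099 difference between gates was -2.34 with the replicate block in place of the pool block, at an adjusted p of 0.00879. Olfr16 passed without odor library 1. The causes were not tested. Median centring moved the median of all genes from -0.005 to -0.021. Signal near background limits Olfr1040 and the 108 receptors with both means below the guide.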

Other observations

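Outside the gene lists, 3 interferon-inducible or matrix genes had differences above 1 on the log2 scale, and they were named after their values were seen. Ifi207, of the interferon-inducible p200 family, was 7.84, 9.25, 8.84 and 8.39 in vehicle libraries 1 to 4 and 9.48, 9.76, 9.44 and 10.12 in odor libraries 1 to 4, a difference of 1.12 (SE 0.28) without overlap. Ifi211, of the same family, differed by 1.09 (SE 0.38), with overlap. Thbs1, which encodes the matrix protein thrombospondin, differed by 1.28 (SE 0.49), with overlap. Ly6k, a gene best known from testis, was 3.83 to 4.60 with vehicle and 2.87 to 3.39 with odor. Its difference was -1.13 (SE 0.19, limma adjusted p = 0.507), and both group means lay below the highest guide. None of these genes passed the test over all genes.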
